A study of Mus musculus with 6 samples.

Results

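The miR-30 family was measured by 6 capture probes on these arrays: the guide strands mmu-miR-30a, mmu-miR-30b, mmu-miR-30c, mmu-miR-30d and mmu-miR-30e, and mmu-miR-30e*, the other arm of the miR-30e hairpin (the mouse prefix is left out from here on). The probes were taken by name, as every spot whose list of miRNA names holds one of the 6, which gave 24 of the 8720 spots on each array and 6 of the 597 mouse miRNA probes. The samples were retinal cells of B10.RⅢ mice aged 8 weeks, 3 from naive mice and 3 from mice developing experimental autoimmune uveoretinitis (EAU) on day 14. EAU is a T cell-driven inflammation of the eye used to model human uveitis. The study asked which miRNAs differ between the conditions. Sample RNA carried the dye Hy3 and was hybridised to a locked nucleic acid array against 1 Hy5-labelled pool of the samples, with no dye swap. The samples were harvested independently, but the labels do not say how many mice each holds, and how EAU was induced is not given in the labels.

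MicroRNAs are short RNAs that guide Argonaute proteins to messenger RNAs, mainly through the seed, which is bases 2 to 8 from the 5′ end, and lower the output of those messengers. The miR-30 guides share a seed and are found in many tissues, including neurons and epithelia. Family members differ in their 3′ part, and the arm opposite to a guide has a seed of its own.

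The RefSeq table (GRCm38.p6) held sequences for 4 of the 6 members, and those sequences show which members share a seed and how closely the strands resemble each other. In the following lines, in which capitals mark the seed, the guides miR-30a, miR-30c and miR-30e come first, then miR-384-5p, which carries the same seed, and then the opposite arms of the hairpins.
miR-30a-5p: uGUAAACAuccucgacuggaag
miR-30c-5p: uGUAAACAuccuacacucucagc
miR-30e-5p: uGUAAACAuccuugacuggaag
miR-384-5p: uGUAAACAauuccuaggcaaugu
miR-30e-3p: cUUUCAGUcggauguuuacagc
miR-30a-3p: cUUUCAGUcggauguuugcagc
miR-30c-1-3p: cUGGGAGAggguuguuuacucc
miR-30c-2-3p: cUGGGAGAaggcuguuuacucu
MiR-30e-3p is the strand that the array calls miR-30e*. The guide seed GUAAACA stood in 4 of the 1679 mature mouse miRNAs of the table (0.238%), and the seed of miR-30e-3p in 2, itself and miR-30a-3p. The table held no sequence for miR-30b and miR-30d, so these counts leave them out. Counted from the 5′ end, miR-30a-5p and miR-30e-5p differ by 1 base (C13U). MiR-30a-5p and miR-30c-5p are identical over the first 12 bases and differ at 5 of the 22 compared. MiR-30e-3p and miR-30a-3p also differ by 1 base (A18G). Whether the probes of such near-identical strands also capture each other was not tested.

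The hairpins lie in pairs. Mir30a (miR-30a-5p at chr1:23272274-23272295) and Mir30c-2 (miR-30c-5p at chr1:23291714-23291736) stand on the plus strand of chromosome 1, 19361 bases apart. Mir30c-1 (miR-30c-5p at chr4:120769584-120769606) and Mir30e (miR-30e-5p at chr4:120772660-120772681, miR-30e-3p at chr4:120772618-120772639) stand on the minus strand of chromosome 4, 2983 bases apart, within the bounds of the gene Nfyc, which encodes a subunit of the transcription factor NF-Y. Mir30b and Mir30d are neighbours in the RefSeq gene table with no gene between them. Since miR-30c-5p is made from both Mir30c-1 and Mir30c-2, its probe reads the sum of both genes.

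All 5 guides and miR-30e* had lower ratios in the EAU samples than in the naive samples, with no overlap between the groups at any member. MiR-30a, miR-30c, miR-30d, miR-30e and miR-30e* passed the test (5 of 6 members), and miR-30b did not. The values are log2(Hy3/Hy5), averaged over those of a probe's 4 spots that the scanner software did not mark as outliers, after background correction and loess, and the test was limma's moderated test with Benjamini-Hochberg adjustment over 595 mouse probes at a threshold of 0.05. Over all 595 probes, 8.74% were called lower in EAU, and at 29.6% all EAU arrays lay below all naive arrays. The median difference was -0.60 over the 6 members, against -0.01 over all tested probes. The bulk RNA does not separate fewer cells that express a miRNA from less of it per cell.

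MiR-30e, the guide made from Mir30e, had the smallest p of the members. Its log2 ratio was 0.53, 0.69 and 0.51 in naive replicates 1 to 3 and 0.14, -0.01 and 0.06 in EAU replicates 1 to 3. The lowest naive array thus stood well above the highest EAU array. The difference was -0.51 (SE 0.06, 95% interval -0.67 to -0.36; 1.43-fold lower; adjusted p = 0.0149 in limma).

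MiR-30e*, the other arm of that hairpin, was measured by a dim probe, and the size of its difference depended on the processing. Its log2 ratio was 0.15, 0.20 and 0.09 in the naive replicates and 0.00, -0.03 and -0.01 in the EAU replicates. The 3 EAU values lay within a few hundredths of each other, below each naive value. The difference was -0.16 (SE 0.03; adjusted p = 0.0324 in limma). It was -0.42 with an offset of 10 in the background correction (adjusted p = 0.015), -0.68 with the scanner software's processed signals (adjusted p = 0.0367) and -0.52 in the authors' deposited table, where it missed the threshold (adjusted p = 0.0598). It also missed when limma was run with the 288 probes that exceeded the blanks on 3 or more arrays (adjusted p = 0.0507). In the sample channel the probe exceeded the blanks on 3 naive arrays and 0 EAU arrays, and in the reference channel on 0 of 6. A probe was called above the blanks where at least 50% of its spots were brighter than the blank and negative-control spots, taken as their median with 3 median absolute deviations added. No fold is given for it, since the blank level of EAU replicate 2 (107 scanner units) lay above the median signal of this probe on each naive array (101, 98.5 and 79.8).

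MiR-30a, which differs from miR-30e by that 1 base, had log2 ratios of 0.59, 0.75 and 0.65 in the naive replicates. In the EAU replicates they were 0.15, -0.39 and -0.04, so that EAU replicate 1 was the highest and EAU replicate 2 the lowest of that group. The difference was -0.75 (SE 0.14, 95% interval -1.11 to -0.39; 1.68-fold lower; adjusted p = 0.0324 in limma).

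MiR-30d had log2 ratios of 0.52, 0.52 and 0.35 in the naive replicates and 0.01, -0.28 and -0.24 in the EAU replicates. The groups stood apart by more than the spread within either. The difference was -0.63 (SE 0.09; 1.55-fold lower; adjusted p = 0.0179 in limma). Its single spots agreed closely: the SD over the spots of an array ranged from 0.029 to 0.161 on the log2 scale.

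MiR-30c, the guide with a source gene in both hairpin pairs whose sequences are shown, had log2 ratios of 0.51, 0.45 and 0.28 in the naive replicates and 0.05, -0.34 and -0.18 in the EAU replicates. The difference was -0.57 (SE 0.11; 1.48-fold lower; adjusted p = 0.0366 in limma). This value depends on single spots. Of its 24 spots over the 6 arrays, 6 lay on a local background above 2 times the median of their array. On EAU replicate 3 one of them had a sample signal of 1078, against 206 to 274 at the other 3 spots. Without such spots the log2 ratio of miR-30c was 0.51, 0.09 and 0.19 in the naive and 0.03, -0.56 and 0.07 in the EAU replicates. The lowest naive array was then barely above the highest EAU array, the difference was -0.42 and the call was lost (adjusted p = 0.235 in limma). MiR-30a, with 3 such spots, stood at -0.74 without them and missed the threshold (adjusted p = 0.0722), and miR-30d, miR-30e and miR-30e* passed. This setting was chosen after seeing the data.

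MiR-30b, the neighbour of miR-30d in the genome, had the largest difference and the widest spread. Its log2 ratio was 0.72, 1.28 and 1.14 in the naive replicates and 0.52, -0.29 and 0.28 in the EAU replicates. The gap between naive replicate 1 and EAU replicate 1 was smaller than the spread within either group. The difference was -0.87 (SE 0.25, 95% interval -1.51 to -0.24), which did not pass over all probes (adjusted p = 0.076 in limma). The scanner software marked 8 of its 24 spots as outliers, and the value of EAU replicate 2 rests on 1 spot. With those spots kept, the difference was -0.77 and passed (adjusted p = 0.0244).

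**Figure D1:**
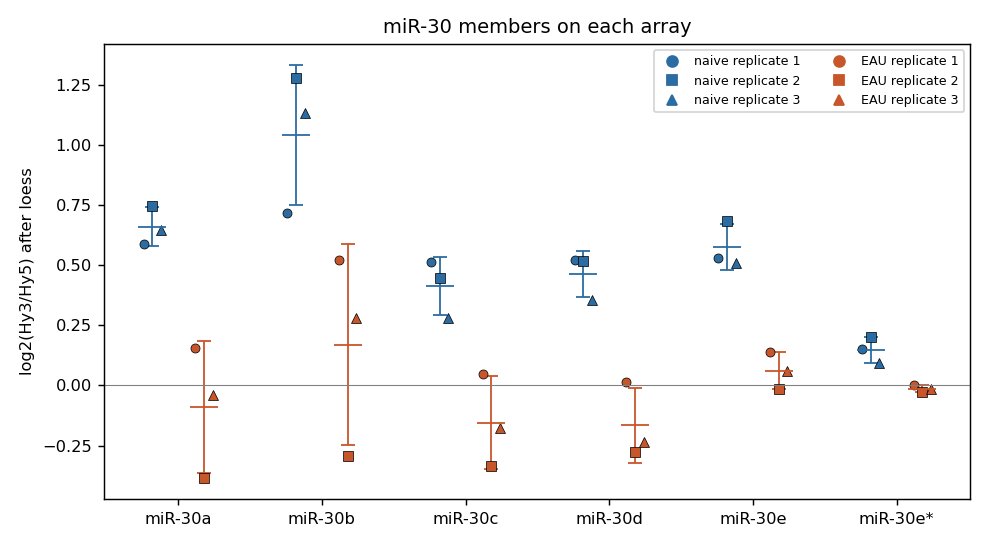
Log2(Hy3/Hy5) after loess (vertical axis) of the 6 miR-30 probes on each array; points are arrays, horizontal bars the group means and error bars 1 SD (n = 3 each). At every member the 3 EAU arrays lie below the 3 naive arrays, with the smallest difference of means for miR-30e* and the widest spread for miR-30b.

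Among all tested probes, ordered from the most negative difference, miR-30b ranked 5, miR-30a 6, miR-30d 10, miR-30c 13 and miR-30e 16 of 595, while miR-30e* ranked 88. In all, 77 of the 595 probes (12.9%) passed, 25 higher (4.2%) and 52 lower in EAU. That split was 21 higher and 4 lower with no normalization, 19 and 12 with loess on bright spots, 42 and 30 with the scanner software's processed signals, and 42 and 40 in the authors' deposited table. Under these settings each member kept a difference below 0. Of the 195 probes above the blanks on all 6 arrays, 28 were called lower (14.4%).

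**Figure D2:**
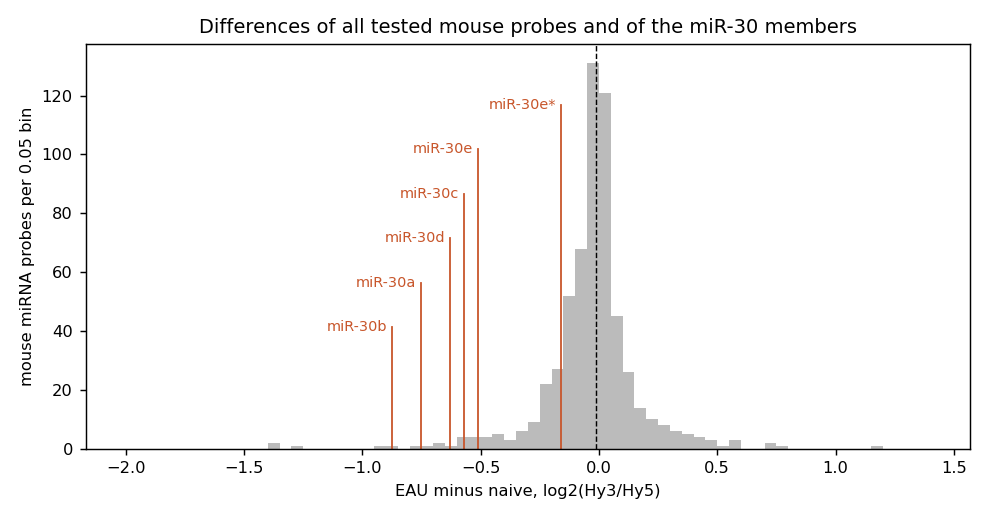
Differences between EAU and naive samples on the log2(Hy3/Hy5) scale (horizontal axis) of the 595 tested mouse probes, counted in bins of 0.05 (grey bars), with the miR-30 members as orange lines and the median of all probes as a dashed line. The line heights only separate the names; the 5 guides lie between -0.87 and -0.51, in the thin left tail, and miR-30e* at -0.16 lies at the edge of the main peak.

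The channels were then compared on their own, as the median over the spots of the signal minus the local background. The sample signal of miR-30e was 278, 310 and 243 scanner units in the naive replicates and 112, 189 and 74.3 in the EAU replicates, without overlap. That of miR-30a was 553, 562 and 556 in the naive and 302, 522 and 183 in the EAU replicates, also without overlap. For miR-30b, miR-30c, miR-30d and miR-30e* the unnormalized sample signals of the groups overlapped, with EAU replicate 2 within or above the naive range at each. Naive over EAU, the mean sample signals stood at 2.21 for miR-30e, 1.81 for miR-30b, 1.66 for miR-30a, 1.56 for miR-30d and 1.43 for miR-30c. None is given for miR-30e*, which did not exceed the blanks on any EAU array. By an exact two-sided permutation test on the log2 signals, p was 0.1 for miR-30a and miR-30e, the smallest that 3 against 3 allows, and 0.2 or 0.3 for the others (adjusted over the 6 members 0.24 to 0.3).

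The reference channel received the same pool on every array, yet it was dimmer on average on the EAU arrays at each member. The reference signal minus background of miR-30e was 23.0 ± 8.49 on naive and 12.0 ± 8.27 on EAU arrays, and that of miR-30a 47.3 ± 12.2 and 36.5 ± 23.8 (mean ± SD, n = 3 each). The ratio of the means ranged from 1.30 for miR-30a to 1.93 for miR-30e, with overlap between the groups at all 6 members (exact permutation p from 0.2 to 0.5). EAU replicate 3 was the dimmest reference at each member, and its miR-30e reference was not above the blanks. Its part in the differences was not tested beyond leaving out that array, given next. With the sample channel alone, normalized between arrays by quantiles, 35 of the 595 probes were called lower in EAU. All 6 members were among them (adjusted p from 0.0017 to 0.0446 in limma). The differences were -1.07 for miR-30a, -1.26 for miR-30b, -0.74 for miR-30c, -0.93 for miR-30d, -1.19 for miR-30e and -0.40 for miR-30e*. For miR-30e and miR-30e* these are more than 1.5 times the differences in the ratio.

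**Figure D3:**
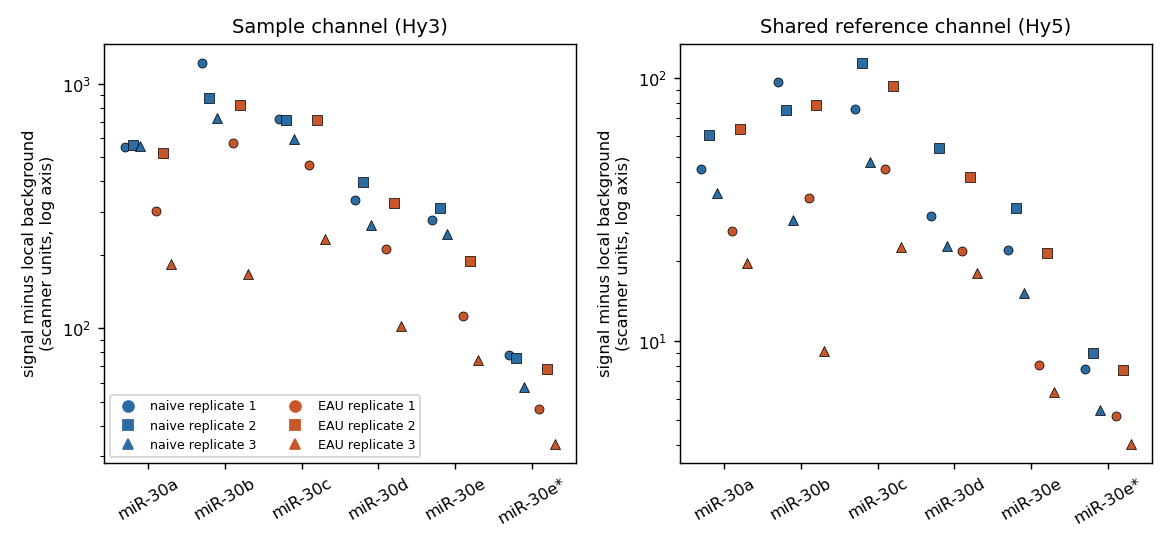
Median over the 4 spots of the signal minus local background (vertical axes, scanner units, log scale) of the miR-30 probes on each array, for the sample channel at left and the shared reference channel at right. EAU replicate 3 (orange triangles) is lowest at every member in both channels, and EAU replicate 2 (orange squares) overlaps the naive arrays at most members.

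The calls rested on few arrays. In limma, 5 of 6 members passed with all arrays, 0 without naive replicate 1, 1 without naive replicate 2, 3 without naive replicate 3, 4 without EAU replicate 1, 3 without EAU replicate 2 and 0 without EAU replicate 3. Without naive replicate 1 or without EAU replicate 3, all 6 members still had an unadjusted p under 0.05. Of all mouse probes, 9, 15 and 36 passed without naive replicates 1, 2 and 3 in turn (5, 8 and 17 lower in EAU). Without EAU replicates 1, 2 and 3 in turn, 79, 63 and 8 passed (56, 38 and 6 lower in EAU). The direction did not turn: all 6 differences stayed below 0 without any one array, with miR-30e between -0.55 and -0.46 and miR-30a between -0.87 and -0.60. Median centring in place of loess left 0 members past the threshold, with miR-30e at -0.80 (adjusted p = 0.0605), miR-30d at -0.59 (adjusted p = 0.174) and miR-30c at -0.24 (adjusted p = 0.569). With no normalization miR-30c stood at -0.17 (adjusted p = 0.938). At an unadjusted p under 0.05, 5 members stood with median centring and 4 with no normalization. With all arrays and loess, 206 of the 595 probes were under it in limma. That count over all probes was not made for the other settings. The day of scanning cannot be told apart from the group, since naive and EAU arrays were scanned on separate days, and no slide held more than 1 array.

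**Figure D4:**
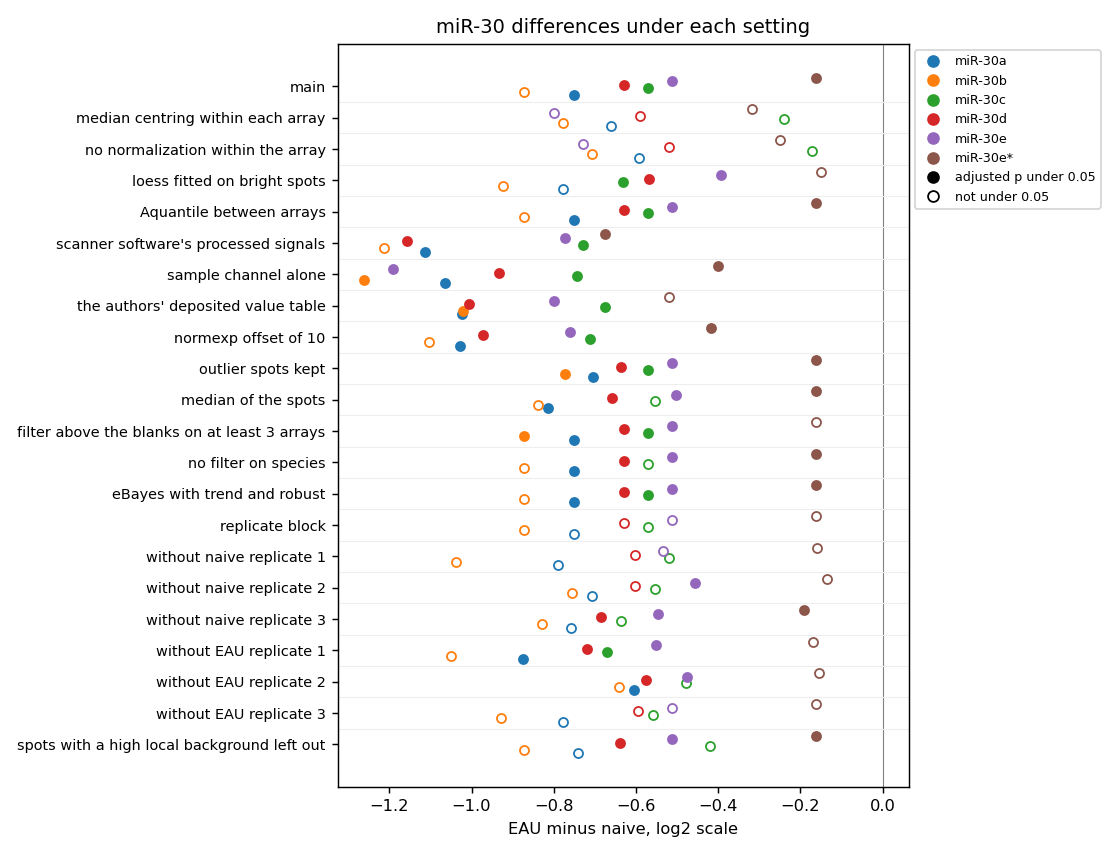
EAU minus naive on the log2 scale (horizontal axis) of each miR-30 member under each processing setting and without each array (vertical axis); filled points have an adjusted p under 0.05. All points lie below 0, and median centring, no normalization, the replicate block and the settings without naive replicate 1 or EAU replicate 3 hold no filled point.

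In the authors' deposited table of linear ratios, miR-30d stood at 1.30, 1.27 and 1.17 in the naive and 0.777, 0.628 and 0.49 in the EAU replicates. There miR-30e stood at 1.73, 2.23 and 2.16 in the naive and 1.36, 0.939 and 1.24 in the EAU replicates. Neither overlapped between the groups in the authors' deposited table, nor did the other members, and this was not counted over all its probes. In limma on the log2 of the authors' deposited table, the 5 guides passed, with differences from -1.02 for miR-30a and miR-30b to -0.68 for miR-30c. MiR-30e* did not pass (-0.52, adjusted p = 0.0598 in limma). Of the 588 probes tested there, 40 were called lower and 42 higher in EAU. Set against the scanner files, the authors' deposited table follows Hy3 over Hy5 on a linear scale (median correlation 0.937 across the 6 arrays over 487 probes), and its centring is not given in the sources used here.

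Each probe has 4 spots, numbered here in the order of the array's feature numbers, and the ratio depended on the spot. In the naive samples the mean log2 ratio of miR-30a was 0.98, 0.77, 0.44 and 0.26 at spots 1 to 4, and in the EAU samples 0.07, 0.12, -0.19 and -0.37. In the naive samples the mean also went from 1.46 at spot 1 to 0.62 at spot 4 for miR-30b, from 0.92 to -0.04 for miR-30c and from 0.84 to 0.33 for miR-30e. For miR-30e* it went from 0.20 to 0.11, and for miR-30d it stayed between 0.40 and 0.54. The cause of this slope was not tested. Compared spot by spot with outlier spots kept, the EAU mean was below the naive mean at 24 of 24 member spots, without overlap at 22. The 2 exceptions were spots 3 and 4 of miR-30c (-0.38 and -0.37), against -1.07 at its spot 1, which includes the bright spot on EAU replicate 3. The spots of a member share their RNA and their array, so this is a description of the arrays and not a further test. No such count was made over the spots of all probes. At the level of probes, all EAU arrays lay below all naive arrays at 29.6% of the 595.

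**Figure D5:**
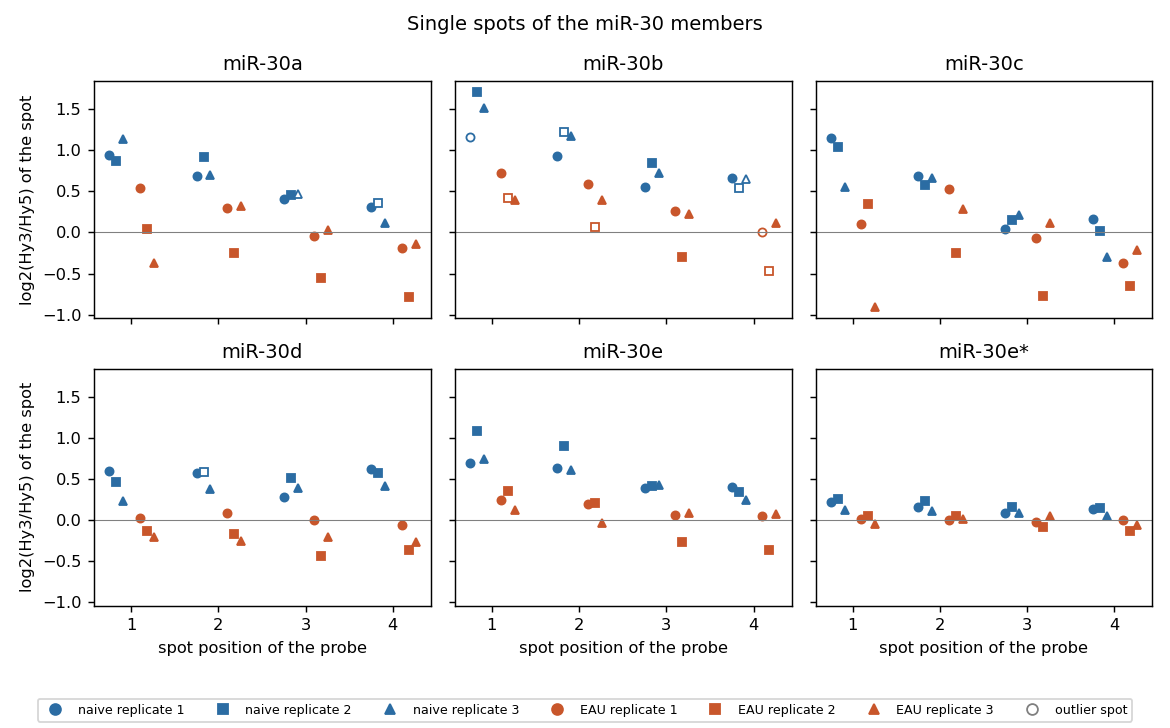
Log2(Hy3/Hy5) of each single spot (vertical axis) of the miR-30 probes by its position among the 4 spots of the probe (horizontal axis), with naive arrays in blue and EAU arrays in orange; open symbols are spots marked as outliers. Naive ratios go down from spot 1 to spot 4 for miR-30a, miR-30b, miR-30c, miR-30e and, over a smaller range, miR-30e*, but not for miR-30d. The groups overlap only at spots 3 and 4 of miR-30c.

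The members were also compared with each other, as the difference between their log2 ratios on each array, over 15 pairs. For miR-30e minus miR-30e*, the arms of the same hairpin, this was 0.43 ± 0.05 in naive and 0.08 ± 0.06 in EAU samples (mean ± SD, n = 3 each), a change of -0.35. Each of the 5 guides against miR-30e* gave groups that did not overlap (p = 0.1 by a two-sided exact permutation test, the smallest possible; adjusted over the 15 pairs 0.25). Among the guides, miR-30a against miR-30e, whose sequences differ by 1 base, gave a change of -0.24 with no overlap (exact permutation p = 0.1, adjusted 0.25), and the other 9 pairs overlapped (exact permutation p from 0.2 to 0.5). The neighbours miR-30b and miR-30d differed by -0.24 in their change, and miR-30c and miR-30d by 0.06. None of these p-values can pass the threshold at 3 against 3, and the data do not show that the guides change alike. MiR-30e* lies near the blanks, where the constant of 50 added in the background correction draws ratios towards 0. Over the 15 processing settings its difference ranged from -0.68 to -0.15, that of miR-30e from -1.19 to -0.39 and that of miR-30d from -1.16 to -0.52.

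Of the 6 listed relatives of the members, 5 had a mouse probe: miR-30a*, miR-30b*, miR-30c-1*, miR-30c-2* and miR-384-5p, while miR-30d* had none under a mouse name. In limma 0 of the 5 passed in either direction, and 3 had an unadjusted p under 0.05, as had 206 of all 595 probes. MiR-30a*, the strand that differs from miR-30e* by 1 base, had log2 ratios of -0.01, -0.01 and -0.03 in the naive and -0.08, -0.14 and -0.18 in the EAU replicates. Its difference was -0.12 (adjusted p = 0.0522), with the probe above the blanks on 1 naive array and on no EAU array. MiR-30c-1* differed by -0.14 (adjusted p = 0.0998) and miR-30c-2* by -0.06 (adjusted p = 0.142). MiR-384-5p, which shares the guide seed but is made from another gene, differed by -0.02 (adjusted p = 0.478) and did not exceed the blanks on any array, so its level cannot be read here.

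MiR-30b*, the arm opposite to miR-30b, was the only relative above the blanks on all 6 arrays. Its log2 ratio was 0.28, 0.22 and 0.34 in the naive and 0.29, 0.63 and 0.50 in the EAU replicates. The groups overlapped, and the difference was 0.19 (SE 0.09, adjusted p = 0.195 in limma), with a sign opposite to that of its guide. A probe under the human name miR-30b* was above the blanks on 2 naive arrays and 1 EAU array. Its log2 ratio ranged from 0.045 to 0.075 in naive and from -0.133 to -0.037 in EAU samples. Whether that probe reads the mouse strand was not tested.

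Over the 6 arrays, 187 other mouse probes were above the blanks on every array and had all values. The 5 whose centred log2 ratios lay closest to the mean of the 5 guides, by the root mean square difference on the log2 scale, were miR-204 (0.10), let-7d (0.11), let-7a (0.12), miR-211 (0.13) and let-7f (0.13). The guides themselves lay at 0.06 to 0.21 from that mean, and miR-30e* at 0.28. Each guide is part of that mean, which makes its own distance smaller by construction. The other probes and miR-30e* are not part of it, so the distances are not on equal terms. MiR-204 (-0.73, adjusted p = 0.0291) and miR-211 (-0.50, adjusted p = 0.00702), both known from the pigment epithelium, passed in limma. So did let-7a (-0.66, adjusted p = 0.0179) and let-7f (-0.60, adjusted p = 0.00263), and let-7d did not (-0.50, adjusted p = 0.0698).

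Marker miRNAs of cell types the samples could hold were compared in the same way, against the 8.74% of all probes called lower and the 4.2% called higher. Of the photoreceptor miRNAs miR-183, miR-96 and miR-182, 1 of 3 was called lower, and their mean log2 ratio ranged from 0.75 to 0.81 in naive and from -1.05 to 0.05 in EAU samples. Both pigment epithelium miRNAs were called lower (list mean 0.44 to 0.54 in naive, -0.24 to 0.06 in EAU), as were 2 of 4 neuronal miRNAs (list mean 0.03 to 0.17 and -0.49 to 0.09, overlapping between the groups) and both of smooth muscle and pericytes (0.28 to 0.31 and -0.11 to 0.01). Of the 6 leukocyte miRNAs 1 was called higher (-0.44 to -0.31 in naive, -0.27 to -0.09 in EAU), 2 were above the blanks on all naive and 4 on all EAU arrays. Of the 3 erythroid miRNAs 1 was called lower (-0.17 to -0.12 and -0.22 to -0.13), and neither of the 2 endothelial miRNAs was called (0.13 to 0.18 and 0.06 to 0.20). MiR-183 and miR-124 had values on only 2 EAU arrays, so the means of their lists leave them out on the remaining EAU array. All 3 photoreceptor and both pigment epithelium miRNAs were above the blanks on all 6 arrays of these samples labelled as retina. Of the neuronal miRNAs 3 were above them on all naive and 2 on all EAU arrays, of the erythroid 0 and 2. For the endothelial miRNAs these counts were 1 and 1, for smooth muscle and pericytes 2 and 2. The part of cell composition in the differences of the miR-30 members was not tested.

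Of the 597 mouse probes, 249 to 315 per array were above the blanks in the sample channel and 149 to 314 in the reference channel, where EAU replicate 3 had the fewest. The share of spots on a high local background ranged from 0.534% on naive replicate 1 to 9.77% on naive replicate 2. No spot of a miR-30 member was saturated. The number of arrays limits the precision. The limma p-values set the difference between the groups against the spread between these arrays, moderated over all tested probes.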

How the data were processed

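Per the labels, 800 ng of total RNA went into each labelling reaction, with Hy3 for the sample and Hy5 for the pool. For each array the authors deposited spot and local background intensity in both channels; the file headers name Agilent Feature Extraction 9.1.3.1. Its processed signals, used as an alternative, had background and dye corrections. A second deposited table holds a linear ratio for 1972 probes; its normalization is not given in the sources used here, its column medians ran from 0.769 to 0.886, and 36 rows above 32 on every array were left out.

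Mean spot intensities were corrected by normexp with an offset of 50 and then by within-array loess, fitted without control spots (limma 3.58.1, R 4.3.3), to log2 ratios. A probe's spots were averaged after dropping outliers. Of 597 mouse probes the software's flag for signal well above background removed 0, and 2 had too few values. Group was the only term in limma's lmFit and eBayes, two-sided. Arrays correlated at 0.253 or more. The added constant compresses ratios of dim probes. The limma step of the code was tested on simulated log2 ratios, and background correction, loess and spot averaging were not. The members and lists were chosen with earlier results of these data known. Alternatives covered the background offset, normalization, spot summary, filters, eBayes settings, a replicate block and each array left out. Named are the members, their other arms, miRNAs with the guide seed, and the 5 probes of closest profile.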

Additional observations from a re-analysis of the deposited data

How the results depend on the processing

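All 6 member differences stayed below 0 in the 15 processing settings, the replicate block included, and without each array in turn; of these 126 values, 80 kept their side of the threshold, 42 lost the call and 4 (all miR-30b) gained it. Of the 15 settings, miR-30d and miR-30e passed in 12, miR-30a in 10, miR-30c and miR-30e* in 9 and miR-30b in 4. Aquantile, the filter above the blanks, no filter on species, eBayes with trend and robust and the replicate block return the main differences by construction. Their sign could not turn. Aquantile also returned the main adjusted p of every member, so its calls were fixed in advance. It is counted among the 15 settings and the 80 values but is no separate check. The number of members past the threshold, 5 with all arrays, was 0 with median centring, 0 with no normalization, 3 with loess on bright spots and 3 without spots on a high local background (added after seeing the data), and 0 to 4 without single arrays. All mouse probes past the threshold, 77 with all arrays, numbered 2 with median centring, 25 with no normalization, 31 with loess on bright spots, 47 with the median of the spots, 44 without spots on a high local background and 8 to 79 without single arrays. With the replicate number as a block, 0 members and 2 probes passed (5 members at an unadjusted p under 0.05, not counted over all probes). The deviations of same-numbered arrays correlated at 0.19, -0.15 and 0.29, so the numbers were not taken as pairs. The cause was not tested for any of these shifts. Where signal is near the blanks, as for miR-30e* and miR-384-5p, differences are bounded by background.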
